A study of Mus musculus with 8 samples.

Results

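Mature B cell surface receptors are described here through 10 genes, taken by name from the probe annotation of an Affymetrix mouse array: Cr2, Fcer2a, Fcrl1, Fcrla, Cd22, Cd72, Siglecg, Ms4a1, Cd79a and Cd79b. They are 10 of the 11189 genes tested. The 10 symbols have 16 probe sets that carry no other symbol. All 16 lay above the filter on dim probe sets (a mean log2 value at or above the median of all probe sets). Where a gene has several, the brightest by its mean over the 8 arrays stands for it. RNA came from splenocytes (spleen cells) of male C57/BL6 mice, with 2 arrays in each of 4 groups. The labels call the 2 arrays biologic replicates 1 and 2, and each is taken here as 1 mouse. The groups were HMGA1a transgenic mice (TG) of 12 months, wild type control littermates (WT) of 12 months, TG mice of 2 months and WT mice of 2 months. HMGA1a is a chromatin protein that binds AT-rich DNA. By the series' design text TG mice develop lymphoid tumours with complete penetrance, the age of 2 months precedes tumours and at 12 months they are established. The promoter of the transgene and the share of tumour cells in each spleen are not given in the sources used here.

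A mature B cell recognises antigen with surface immunoglobulin, which signals through the paired chains encoded by Cd79a and Cd79b. Other surface proteins set the strength of that signal. The complement receptor CD21 (Cr2) binds complement-coated antigen and lowers the threshold for activation, and CD22, CD72 and Siglec-G (Siglecg) recruit phosphatases that dampen it. CD23 (Fcer2a) is the low-affinity receptor for IgE, CD20 (Ms4a1) is a tetraspan membrane protein found on B cells from the precursor stage onwards, and Fcrl1 encodes an Fc receptor-like surface protein. Fcrla encodes a related protein that stays inside the cell. CD21 is highest on marginal zone B cells and CD23 on follicular B cells of the mouse spleen, and follicular dendritic cells carry both as well.

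The sequences before the start sites of 4 of these genes are shown because Cr2, Fcer2a and Fcrl1 are the receptor genes that passed a test with all arrays (in fits with the replicate number as a block), and Cd79a is an antigen receptor chain that passed none. They were chosen after their values were seen. They are from RefSeq on build GRCm38.p6, read 5′ to 3′ on the strand of the gene, and hold only bases that lie before the gene's outermost annotated start. Capitals mark TGGGAA or its complement TTCCCA, the core that the Notch partner RBPJ binds, and GAGGAA or TTCCTC, a core bound by the B cell and myeloid factor PU.1. The Cr2 sequence is chr1:195176881-195176969 (minus strand), Fcer2a chr8:3694175-3694424 (minus), Fcrl1 chr3:87376137-87376352 (plus) and Cd79a chr7:24897247-24897496 (plus).
Cr2: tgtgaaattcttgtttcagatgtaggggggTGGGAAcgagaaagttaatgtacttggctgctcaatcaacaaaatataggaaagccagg
Fcer2a: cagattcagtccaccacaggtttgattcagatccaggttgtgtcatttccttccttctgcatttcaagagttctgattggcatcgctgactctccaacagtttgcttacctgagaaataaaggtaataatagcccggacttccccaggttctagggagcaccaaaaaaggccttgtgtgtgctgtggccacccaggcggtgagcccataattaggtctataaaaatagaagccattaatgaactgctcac
Fcrl1: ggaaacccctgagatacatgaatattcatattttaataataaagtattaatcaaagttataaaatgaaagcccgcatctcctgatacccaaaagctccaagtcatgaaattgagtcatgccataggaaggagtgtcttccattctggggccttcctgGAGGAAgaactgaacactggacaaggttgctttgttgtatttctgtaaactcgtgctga
Cd79a: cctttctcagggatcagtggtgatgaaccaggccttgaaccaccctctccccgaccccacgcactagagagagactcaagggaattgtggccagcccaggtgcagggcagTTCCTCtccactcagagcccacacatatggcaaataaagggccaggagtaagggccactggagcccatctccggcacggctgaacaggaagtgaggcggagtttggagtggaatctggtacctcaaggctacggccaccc
Of the 10 genes, 8 matched an entry in the promoter table. Over the 250 bases before the start of a gene's entry (the first where it has several), on both strands, the RBPJ core was found for 2 of the 8 (Cr2 and Cd22), and it was found in 21.6% of all 32851 promoters. The 2 further entries of Fcer2a, at starts inside the gene, also held it, and the further entry of Siglecg did not. The 21.6% is a share of single entries, so it does not apply to a gene searched in several. The PU.1 core was found for 5 of 8 (Cd79a, Fcrl1, Fcrla, Cd72 and Siglecg), against 23.3% of all promoters. The palindromic EBF core CCCNNGGG was found for Cd22, against 11.8% of all promoters, and the octamer ATGCAAAT or ATTTGCAT for none of the 8, against 1.60%. The share of A and T in these 250 bases was between 41.2% and 59.2% with a median of 50.2% in the 8 genes, against a median of 47.6% and quartiles of 38.8% and 54.8% in all promoters. It was 46.4% for Cr2, 54% for Fcer2a, 59.2% for Fcrl1 and 41.2% for Cd79a. For Cr2 and Fcrl1 the 250 bases run into the annotated gene, and the bases shown above had 58.4% and 60.6%.

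Before the results, 3 features of the arrays bear on them. First, arrays with the same replicate number deviated together in all 6 pairings of groups (r from 0.464 to 0.654, across genes, which are not independent), so results are also given inside each replicate number. The replicate 1 WT array of 2 months carried a summed signal of 12600 over 6 exocrine pancreas genes, against 565 to 848 on the other 7 arrays. The 3'/5' signal ratio of control genes, which reflects RNA integrity, was below the WT value in the TG mice of 12 months, inside both replicate pairs. For Gapdh it was 0.843 and 1.21 in TG mice against 1.25 and 1.73 in WT mice, and for beta-actin 1.20 and 1.10 against 1.48 and 1.31. At 2 months the Gapdh ratio was 1.07 and 1.48 in TG and 1.01 and 1.39 in WT mice, and the beta-actin ratio 1.21 and 1.14 in TG and 1.24 and 1.18 in WT mice. The Gapdh ratio was thus higher and the beta-actin ratio lower in TG mice of that age, in both replicate pairs. The part of this ratio in the results was not tested.

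At 12 months all 10 receptor genes had a lower mean log2 signal in TG than in WT mice, by very different amounts. On the scale of log2(signal + 16), Cr2 was 2.95-fold and Fcer2a 2.80-fold lower. Fcrl1 was 2.01-fold and Siglecg 2.02-fold lower, and Cd22, Cd72 and Fcrla were between 1.25-fold and 1.37-fold lower. Cd79a and Cd79b were lower in the replicate 1 TG mouse alone, and Ms4a1 differed least. Over all genes tested, 54.8% were lower. The 10 genes had a median log2 fold change of -0.45, with -0.78 in the replicate 1 pair and -0.62 in the replicate 2 pair, and all genes had one of -0.03 (-0.05 and -0.02). In bulk spleen RNA, fewer B cells and less receptor RNA per B cell cannot be told apart.

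**Figure D1:**
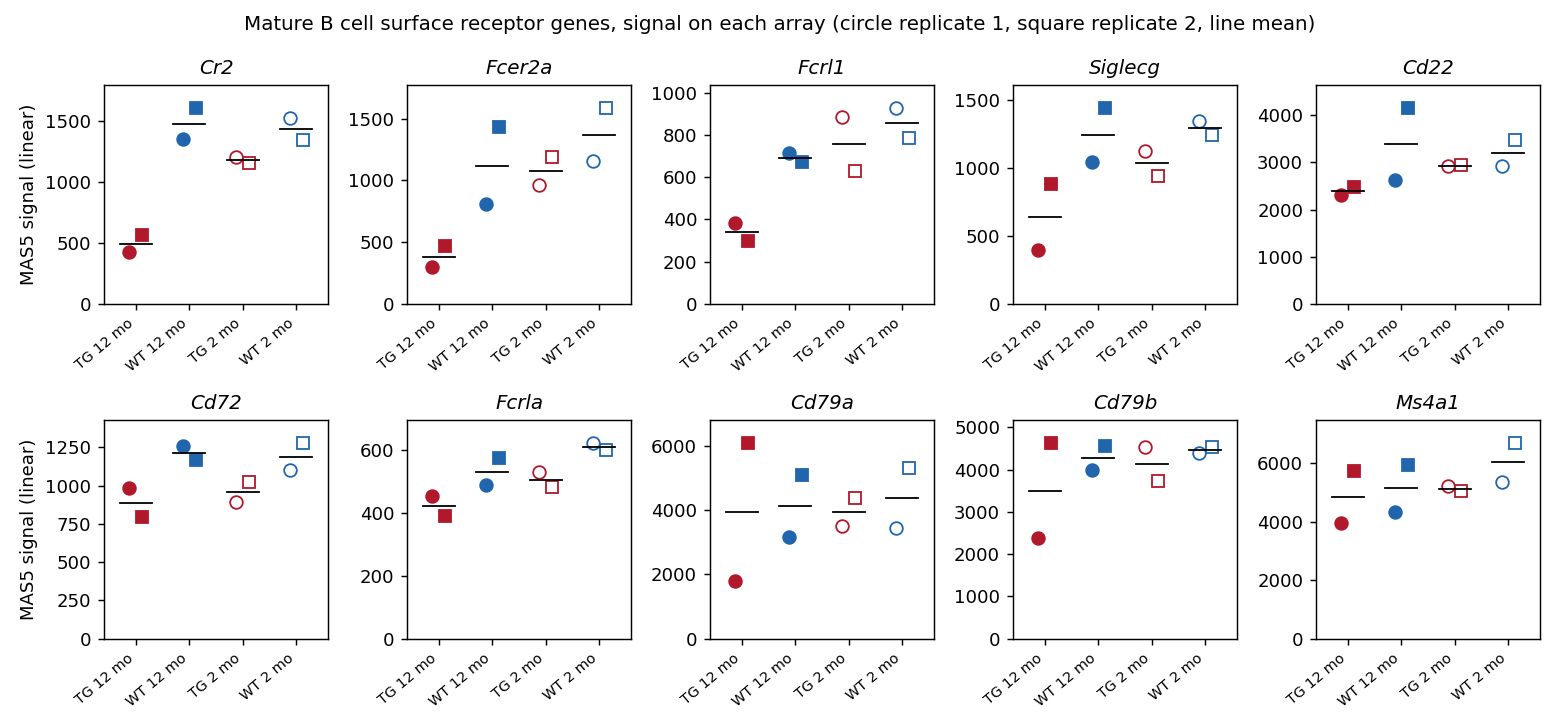
Signal of each receptor gene on each array, on a linear axis that starts at 0, by group, with TG in red, WT in blue, filled symbols for 12 months and open symbols for 2 months. Each point is 1 mouse and each line a group mean of 2 mice. Both TG mice of 12 months lie below all other mice for Cr2, Fcer2a, Fcrl1, Siglecg, Cd22 and Fcrla, whereas Cd79a spans 1796 to 6092 in that group. How many of all genes lie below all other mice in this way was not counted.

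The complement and IgE receptors showed the widest gap. Cr2 had signals of 425 and 564 in the replicate 1 and 2 TG mice of 12 months, against 1352 and 1607 in the WT mice. At 2 months Cr2 had 1210 and 1157 in TG mice, against 1526 and 1346 in WT mice. The 12-month TG signals were thus below those of the 6 other mice, with no overlap. The log2 fold change of Cr2 at 12 months was -1.56 ± 0.20 (SE), at -1.63 within replicate 1 and -1.48 within replicate 2, and it ranked number 9 from the lowest of 11189 genes.

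Fcer2a had 298 and 467 in TG mice of 12 months, against 805 and 1429 in WT mice. In mice of 2 months it had 959 and 1189 in TG, against 1158 and 1582 in WT. Again both TG mice of 12 months lay below every other mouse. The log2 fold change at 12 months was -1.48 ± 0.33, with -1.39 and -1.58 within the replicates. A further probe set of Fcer2a gave -1.29, at 68.2 and 101 in TG and 180 and 283 in WT mice.

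In the limma fit without a block, no receptor gene passed the test at 12 months (0 of 10, and 0% of all genes), and the adjusted p was 0.232 for Cr2 and 0.561 for Fcer2a. At an unadjusted p under 0.05 the count was 5 of 10 (Cr2, Fcer2a, Fcrl1, Siglecg and Cd72, all lower in TG), against 5.14% of all genes that were lower at that level. With the block it was 7 of 10, against 12.6% of all genes. With the replicate number as a block, Cr2 and Fcer2a fell (adjusted p = 0.0255 for each), against 0.0357% of all genes called lower. Both calls held without either TG mouse of 12 months (adjusted p = 0.0193 and 0.0043 for Cr2, and 0.0227 and 0.0078 for Fcer2a) and without either TG mouse of 2 months. They were lost on leaving out the replicate 1 WT mouse of 12 months (0.0803 for both), the replicate 2 WT mouse of 12 months (0.226 for both), the replicate 1 WT mouse of 2 months (0.143 and 0.170) or the replicate 2 WT mouse of 2 months (0.138 and 0.167).

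The Fc receptor-like genes differed from each other. Fcrl1 had 382 and 297 in TG mice of 12 months, against 713 and 674 in WT mice, and 888 and 628 in TG mice of 2 months, against 926 and 784 in WT mice. The 12-month TG values were the lowest of the 8 arrays. The log2 fold change was -1.01 ± 0.22 at 12 months (-0.87 and -1.14 within the replicates), with an adjusted p of 0.561, or 0.0594 with the block. A dimmer probe set of Fcrl1 had -0.72. Fcrla had 451 and 389 in TG mice of 12 months and 487 and 573 in WT mice, so the groups did not overlap but were close. At 2 months Fcrla had 528 and 482 in TG mice, against 620 and 598 in WT mice. Its log2 fold change at 12 months was -0.32 ± 0.18 (-0.10 and -0.54 within the replicates), and the 2 further probe sets of Fcrla gave -0.44 and -0.58.

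Among the inhibitory receptors, Siglecg showed the largest difference. It had 400 and 885 in TG mice of 12 months, against 1041 and 1438 in WT mice. In mice of 2 months it had 1127 and 943 in TG, against 1345 and 1243 in WT. The 2 TG mice of 12 months thus differed from each other by over 2-fold, the replicate 1 mouse being far lower. The log2 fold change at 12 months was -1.02 ± 0.34 (-1.34 and -0.69 within the replicates, adjusted p = 0.591, or 0.128 with the block). It was -0.46 without the replicate 1 TG mouse and -1.57 without the replicate 2 TG mouse.

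Cd22 had 2316 and 2481 in TG mice of 12 months, against 2624 and 4146 in WT mice, and 2922 and 2940 in TG mice of 2 months, against 2932 and 3465 in WT mice. Its 12-month difference rested mainly on the high replicate 2 WT mouse. It was -0.46 ± 0.24 (-0.18 and -0.74 within the replicates) and -0.13 without that mouse. Cd72 had 985 and 795 in TG mice of 12 months, against 1258 and 1170 in WT mice, without overlap, and the log2 fold change was -0.45 ± 0.19 (-0.35 and -0.55). At 2 months Cd72 had 891 and 1022 in TG mice, against 1100 and 1278 in WT mice. The second probe set of Cd22 gave -0.45 at 12 months.

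The antigen receptor chains behaved otherwise. Cd79a had 1796 and 6092 in TG mice of 12 months, against 3182 and 5105 in WT mice. The replicate 1 TG mouse had the lowest and the replicate 2 TG mouse the highest Cd79a signal of the 8 arrays. Within the replicates the difference was therefore -0.82 and 0.25, and the log2 fold change of -0.28 ± 0.53 was smaller than its error. Cd79b had 2386 and 4629 in TG mice of 12 months, against 4002 and 4573 in WT mice, again with 1 low TG mouse (-0.74 and 0.02 within the replicates). At 2 months Cd79a had 3515 and 4395 in TG and 3448 and 5306 in WT mice, and Cd79b 4549 and 3729 in TG and 4388 and 4533 in WT mice.

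Ms4a1 had 3970 and 5738 in TG mice of 12 months, against 4334 and 5937 in WT mice, and 5212 and 5057 in TG mice of 2 months, against 5365 and 6685 in WT mice. The 12-month groups overlapped and the log2 fold change was -0.09 ± 0.26 (-0.13 and -0.05 within the replicates). Its further probe set gave -0.18, with -0.35 and 0.00 within the replicates. Counting all 10 genes, both TG arrays lay below both WT arrays for 7, against 19.9% of all genes, and the exceptions were Cd79a, Cd79b and Ms4a1. Of the 10 genes, 8 were lower within both replicates, against 35.5% of all genes.

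**Figure D2:**
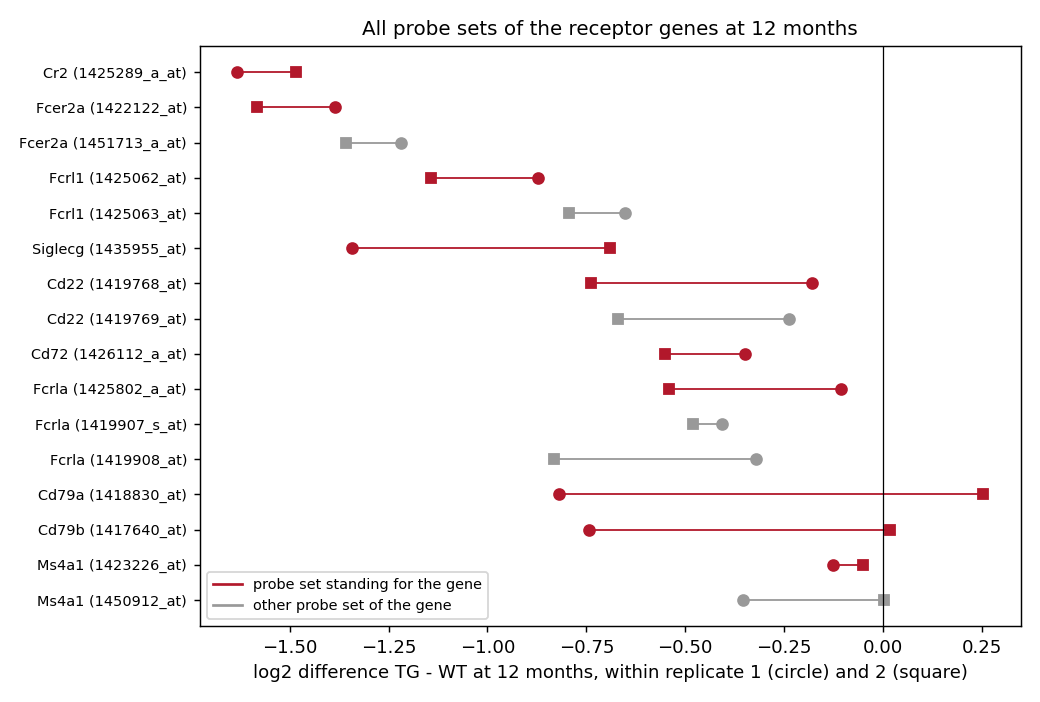
Log2 difference of TG minus WT at 12 months for each of the 16 probe sets, within replicate 1 (circle) and replicate 2 (square), with the probe set that stands for a gene in red and its other probe sets in grey. The further probe sets of Fcer2a, Fcrl1, Cd22 and Fcrla lie on the same side of 0 as the chosen ones, with means between -0.44 and -1.29.

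The differences of the receptor genes can also be set against those of Cd79a and Cd79b on the same arrays. This shows unequal change and does not depend on the scaling factor of an array. Relative to the mean log2 value of these chains, the TG minus WT difference of Cr2 at 12 months was -0.85 within replicate 1 and -1.62 within replicate 2, and that of Fcer2a was -0.60 and -1.72. Siglecg had -0.56 and -0.83. Fcrl1 had -0.09 and -1.28, so in the replicate 1 pair it differed about as much as the chains themselves. Cd22 (0.60 and -0.87), Cd72 (0.43 and -0.69), Fcrla (0.68 and -0.68) and Ms4a1 (0.65 and -0.18) changed sign between the replicates. In the replicate 1 TG mouse these 4 genes were less reduced than the chains, and in the replicate 2 TG mouse the chains were not reduced. At 2 months all these relative differences were between -0.37 and 0.06.

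**Figure D3:**
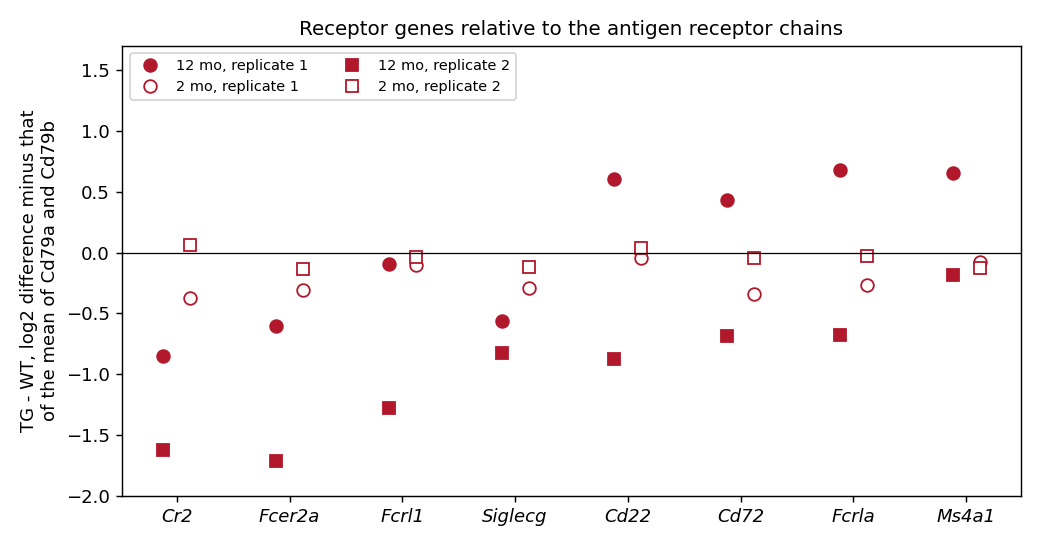
TG minus WT log2 difference of 8 receptor genes after subtracting that of the mean of Cd79a and Cd79b, within replicate 1 (circles) and replicate 2 (squares), at 12 months (filled) and at 2 months (open). Cr2, Fcer2a and Siglecg lie at -0.56 or below in both replicates at 12 months, whereas Cd22, Cd72, Fcrla and Ms4a1 lie above 0 in replicate 1 and below 0 in replicate 2.

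Marker levels of other cell types differed between single mice or between the 12-month groups, and their part in the receptor differences was not tested. The sums of macrophage, dendritic cell and follicular dendritic cell genes were lower in both TG mice of 12 months than in both WT mice, whereas those of T cell, NK cell and neutrophil genes were raised in 1 TG mouse. The summed signal of 15 measured T cell genes of 18 listed (Cd3d and Thy1 brightest) was 6960 to 13007 in TG mice of 12 months, against 5590 to 6939 in WT mice. The upper value belongs to the replicate 1 TG mouse, the one with low Cd79a and Cd79b, and the replicate 2 pair was nearly equal (6960 in TG and 6939 in WT). Cd8b1 was higher in both TG mice (1180 and 475 against 263 and 330) and Cd4 lower (271 and 258 against 336 and 345). Of the 15 genes, 13 had a higher and 2 a lower mean log2 signal in TG mice, at each age. At 2 months the T cell sum was higher in both TG mice (8648 to 9278) than in both WT mice (7550 to 7769). For 8 of 9 NK cell genes (Nkg7 and Klrd1) the 12-month sum was 1796 to 3895 against 1832 to 1893. The 12-month sum of 12 of 12 neutrophil genes (S100a8 and S100a9) was 9864 to 22261 against 6160 to 10796. The high NK value was that of the replicate 1 TG mouse and the high neutrophil value that of the replicate 2 TG mouse, and in the other pair of each list the TG sum was below the WT sum. Of the 8 NK cell genes, 5 had a higher and 3 a lower mean log2 signal in TG mice. Gzma (42.5 and 89.6 in TG, 338 and 337 in WT mice) and Ncr1 (24.4 and 28.9 against 50.3 and 53.4) were lower in both TG mice. Nkg7 (1746 and 779 against 422 and 547) and Eomes (594 and 284 against 156 and 214) were higher in both. So was Prf1 (255 and 114 against 107 and 100). At 2 months the neutrophil sum was also high on the replicate 2 arrays, at 26565 in TG and 21990 in WT mice, against 8210 and 6919 on the replicate 1 arrays. The summed signal of 12 of 12 macrophage genes (Csf1r and Vcam1) was 16049 to 22881 against 26156 to 27322, and that of 7 of 8 dendritic cell genes (Itgax and Flt3) 1264 to 1457 against 1738 to 2255. Of 6 follicular dendritic cell genes, 4 were measured (Clu, Mfge8, Cxcl13 and Madcam1) and summed to 7519 to 8088 in TG mice, against 9661 to 9671 in WT mice. Of these, Clu averaged 3210 in TG and 3931 in WT mice of 12 months, and Mfge8 3035 and 3328. Cxcl13, the chemokine of B cell follicles, averaged 1370 and 2223, whereas Madcam1 had 187 and 185.

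The NK cell and neutrophil sums overlapped between TG and WT mice of 12 months, and so did those of the remaining lists. These were plasma cell genes (10 of 10 measured, Jchain and Mzb1 brightest, 19627 to 25219 against 17275 to 24223), B precursor genes (4 of 8, Il7r and Cd93, 1325 to 2364 against 1439 to 1628), erythroid genes (5 of 9, Slc4a1 and Alas2, 6959 to 10364 against 8944 to 8976) and exocrine pancreas genes (6 of 10, Cela1 and Cela2a, 687 to 704 against 565 to 738). Most of the upper B precursor value, from the replicate 1 TG mouse, was Il7r (1820, with 687 in the replicate 2 TG mouse and 896 and 663 in WT mice). The 3 other B precursor genes had a lower mean log2 signal in TG mice. Of these, Cd93 (239 and 289 against 376 and 325) and Vpreb3 (229 and 241 against 288 and 297) did not overlap between the groups. No measured gene of any of these 10 marker lists had a signal under 16 on all arrays. The receptor genes themselves had signals of 297 or more on every array, so their RNA was measured in each spleen. Which cells it came from was not tested.

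Other genes of the B cell receptor pathway showed smaller differences at 12 months. Of 24 listed signalling and coreceptor genes, 21 were measured, 16 had a lower and 5 a higher mean log2 signal in TG mice, none passed the test with or without the block (limma, 2 at an unadjusted p under 0.05, both lower, against 5.14% of all genes), and the median log2 fold change was -0.10. Both TG arrays lay below both WT arrays for 3 of the 21, no larger a share than the 19.9% of all genes. By the size of the moderated t, the leading genes were the adaptor Bank1 (1589 and 1493 in TG, against 2363 and 2389 in WT mice), the kinase Prkcb (1800 and 1901 against 2359 and 2472) and the adaptor Grb2 (1065 and 861 against 820 and 748). Their log2 fold changes were -0.62 ± 0.21, -0.38 ± 0.16 and 0.28 ± 0.18. For Bank1, the WT mice were nearly equal and both TG mice lower.

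Of 20 other B cell surface genes, 17 were measured, 13 lower and 4 higher in TG mice of 12 months, with a median of -0.13 and 7 of 17 with both TG arrays below both WT arrays, against 19.9% of all genes. None passed the test with or without the block (limma, 4 at an unadjusted p under 0.05, all lower, against 5.14% of all genes). Icosl, the ligand of the T cell costimulator ICOS, had 361 and 395 in TG, against 876 and 763 in WT mice (log2 fold change -1.08 ± 0.24). Cd1d1, which presents lipids to NKT cells, had 337 and 387 against 571 and 708 (-0.79 ± 0.21), and Cxcr5, the receptor for Cxcl13, 564 and 640 against 865 and 980 (-0.60 ± 0.18). All 18 B lineage transcription factors listed were measured, 12 lower and 6 higher, with a median of -0.24, and none passed (limma, with or without the block, 3 at an unadjusted p under 0.05, all lower, against the same 5.14%). The repressor Bach2 had 714 and 473 in TG against 1272 and 1026 in WT mice (-0.96 ± 0.23), Irf8 1802 and 1741 against 2647 and 2735 (-0.60 ± 0.17), and Notch2, a receptor that marginal zone B cells need and that acts through RBPJ, 980 and 1067 against 1356 and 1396 (-0.42 ± 0.17).

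At 2 months all 10 receptor genes also had a lower mean log2 signal in TG than in WT mice. For the probe sets that stand for the genes, the differences were small and of like size. Their log2 fold changes were between -0.34 and -0.11, with a median of -0.24 (-0.14 in the replicate 1 pair and -0.31 in the replicate 2 pair). The further probe sets gave -0.61 for Fcrl1, -0.45 and -0.35 for Fcrla, -0.34 for Fcer2a, -0.34 for Ms4a1 and -0.18 for Cd22. All genes had a median of 0.01, and 47.5% of them were lower. No receptor gene passed the test (0 of 10, and 0% of all genes, limma with or without the block, adjusted p = 1.00 for each). At an unadjusted p under 0.05 the count was 0 without the block, against 0.0983% of all genes called lower, and 1 with it (Fcer2a), against 0.697%. The groups did not overlap for 5 of 10 genes (Cr2, Fcrla, Cd72, Siglecg and Ms4a1), against 7.83% of all genes with both TG arrays below both WT arrays. Of the 10, 8 were lower within both replicates, against 24.2% of all genes, and Cd79a and Cd79b were the exceptions. Without the WT mouse of 2 months whose array carried the pancreas signal, all 10 genes were still lower in TG mice, with a median of -0.25.

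The transgene effects at the 2 ages were then compared directly, by their difference. It was -1.29 ± 0.28 for Cr2 (-1.30 and -1.27 within the replicates), -1.15 ± 0.46 for Fcer2a (-1.12 and -1.18), -0.82 ± 0.31 for Fcrl1 (-0.81 and -0.83) and -0.69 ± 0.49 for Siglecg (-1.09 and -0.30). The 6 other genes had differences between -0.34 and 0.13. The dimmer probe set of Fcrl1 had -0.72 for TG against WT at 12 months and -0.61 at 2 months. Its effects at the 2 ages were thus close, unlike those of the brighter probe set. Of the 10 differences 9 were below 0, against 56.3% of all genes, and 6 were below 0 in both replicates, against 32.7%. None of the 10 passed the test (0% of all genes passed, adjusted p = 1.00 for each in limma, and at least 0.598 with the block), and 3 had an unadjusted p under 0.05 (Cr2, Fcer2a and Fcrl1), against 1.39% of all genes called lower. With the block the same 3 genes did, against 5.54%. A larger effect at 12 than at 2 months is therefore not shown for any receptor gene. Cr2 alone had an adjusted p under 0.05 in 1 of the fits with the block and 1 array left out, the one without the replicate 2 TG mouse of 12 months (0.039), in which 40 of all genes did.

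**Figure D4:**
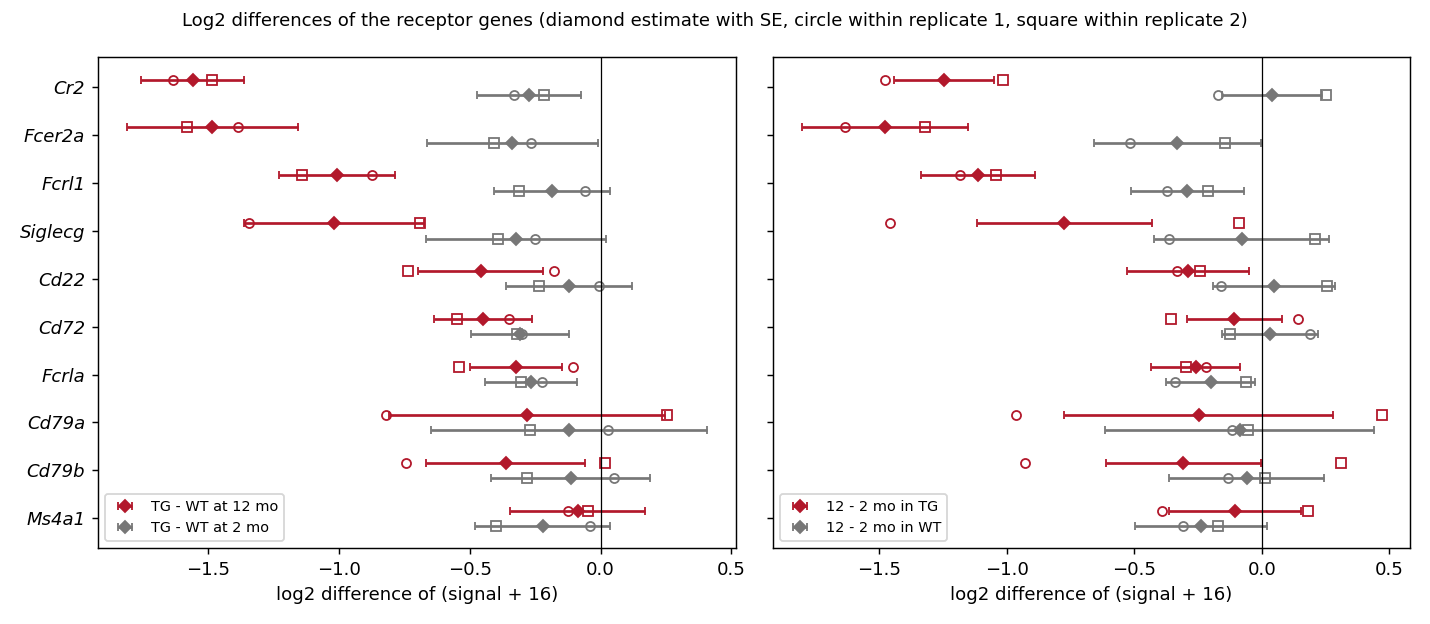
Log2 differences of the 10 receptor genes for TG minus WT (left, 12 months red, 2 months grey) and for 12 minus 2 months (right, TG red, WT grey), with the estimate and its SE as a diamond with a bar, and the values within replicate 1 and 2 as a circle and a square. The estimates (diamonds) of Cr2, Fcer2a and Fcrl1 lie at -1.01 or below in both red series and between -0.34 and 0.04 in both grey series. Their values within single replicates spread more widely.

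The same arrays were also compared by age within each genotype. These comparisons reuse the arrays of the transgene comparisons and are not independent of them. In TG mice, 12-month signals of all 10 genes were lower than 2-month signals, and 56.3% of all genes were lower. The median log2 fold change of the 10 was -0.30, with -0.94 in the replicate 1 pair and -0.27 in the replicate 2 pair, against -0.04 over all genes. The values were -1.48 ± 0.33 for Fcer2a, -1.25 ± 0.20 for Cr2 and -1.11 ± 0.22 for Fcrl1, each below -1 within both replicates. The dimmer probe set of Fcrl1 had 46.2 and 34.7 in TG mice of 12 months, against 91.9 and 38.3 at 2 months. Its replicate 2 pair was thus close. Siglecg had -0.77 ± 0.34, made of -1.46 and -0.09. No receptor gene passed without the block (0 of 10, and 0.00894% of all genes, limma), the lowest adjusted p being 0.419 for Cr2. At an unadjusted p under 0.05 there were 3, against 3.11% of all genes called lower, and with the block 4, against 8.87%.

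With the block, Fcer2a (adjusted p = 0.0182), Fcrl1 (0.0314) and Cr2 (0.0326) fell from the younger to the older TG mice, against 0.0894% of all genes called lower. These calls held without either TG mouse of 12 months. All 3 were lost once the replicate 1 TG mouse of 2 months was omitted (0.234, 0.343 and 0.343). The same held for the replicate 2 TG mouse (0.0912, 0.165 and 0.188), the replicate 1 WT mouse (0.0771, 0.129 and 0.113) and the replicate 2 WT mouse (0.0764, 0.120 and 0.110) of that age. That of Cr2 was also lost without the replicate 1 (0.0521) or replicate 2 (0.0523) WT mouse of 12 months. Both TG arrays of 12 months lay below both of 2 months for 6 of 10 genes, against 17.4% of all genes. The signal was lower within both replicates for 6 genes, against 33.3% of all genes.

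In WT mice, differences by age were small. The median log2 fold change of 12 over 2 months was -0.08 (-0.24 and -0.06 within the replicates), against 0.01 over all genes, 7 genes being lower and 3 higher, where 48.6% of all genes were lower. Both replicates were lower for 5 genes, against 26.3% of all genes. The values ran from -0.33 ± 0.33 for Fcer2a to 0.05 ± 0.24 for Cd22, and Cr2 had 0.04 ± 0.20. None passed the test (0 of 10, 0% of all genes, limma with or without the block), none had an unadjusted p under 0.05 without the block, against 0.581% of all genes called lower, and 1 did with it (Fcer2a), against 2.4%. Both arrays of 12 months lay below both of 2 months for 2 genes (Fcrl1 and Fcrla), against 10.9% of all genes. Without the WT mouse of 2 months with the pancreas signal the median was -0.13.

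Across the 8 arrays, the lowest signal of a receptor gene was always in a TG mouse of 12 months, in the replicate 1 mouse for 7 genes and in the replicate 2 mouse for 3 (Fcrl1, Fcrla and Cd72). The share of all genes with their lowest signal in these mice was not counted, so this is a description only. Other genes were ranked by how close their log2 values, centred on their own mean, came to the mean centred profile of the 10 receptor genes. Closest were Osbpl5, Lta, Rab7b, Avpi1 and Prkab2, with root mean square differences of 0.08 to 0.11 log2 units, against a median of 0.40 over all other genes. Among the receptor genes this measure was between 0.19 (Cd22) and 0.43 (Fcer2a). Lta, which encodes the cytokine lymphotoxin alpha, had 56.6 and 98.9 in TG mice of 12 months, against 110 and 151 in WT mice. The profile itself was -0.76 and -0.30 in TG mice of 12 months, 0.00 and 0.35 in WT mice of 12 months, 0.09 and 0.04 in TG mice of 2 months and 0.23 and 0.36 in WT mice of 2 months.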

How the data were processed

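Splenocyte RNA of 8 mice was measured on Affymetrix arrays. The authors deposited linear signal intensities, made with GCOS 1.4 and MAS5 per the submitters' processing notes. The trimmed mean of each array was 150.001 without the lowest and highest 2%, and the median signal was 44.9 to 49.5. Of 45101 probe sets, 34945 had 1 symbol, 932 several and 9160 none, beside 64 controls. For 34741 of those with 1 symbol, the gene identifier matched a RefSeq symbol, which was used whether or not it differed. Values were taken as log2(signal + 16), which understates changes of dim genes, and probe sets with a mean under the median of all were dropped (22519 left). The probe set with the highest mean stood for each of 11189 genes. Some probe sets can also bind transcripts of related genes.

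A model of 4 group means over the 8 arrays was used in limma 3.58.1 (R 4.3.3), by lmFit and eBayes with an intensity trend and 4 residual degrees of freedom, with p-values 2-sided and adjusted by Benjamini-Hochberg over all genes. The threshold was 0.05. A second fit held the replicate number as a block (3 degrees of freedom). Same-numbered mice deviated together in every pair of groups, and the labels give no reason, so blocked values stand beside results whose call they change. The code was tested on simulated data. The small number of arrays limits all precision, and no label says whether an array holds 1 animal or a pool. Members, gene lists and tests were chosen with earlier results of these data known. The named genes are all 10 receptor genes, the 3 of each B cell list with the largest moderated t at 12 months, the brightest markers of each cell type and the 5 closest profiles. A few further markers are named where the members of a list differed from each other. Predicted genes and receptor segments were not named. Alternatives were other offsets (1 and 64), no filter or a filter at the 75th percentile, quantile and cyclic loess scaling, averaging the probe sets of a gene, no trend, no moderation, only the 4 arrays of a comparison and leaving out each array. Fits with the block and 1 array left out were chosen after seeing the data. Promoter sequences are from RefSeq (GRCm38.p6).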

Additional observations from a re-analysis of the deposited data

How the results depend on the processing

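Under the 11 alternatives other than leaving out 1 array (10 for the difference of effects), no receptor gene turned its direction, and the median log2 fold change of the 10 genes stayed between -0.50 and -0.44 for TG against WT at 12 months and between -0.29 and -0.23 at 2 months. The count of genes past the test was 0 in each comparison under all of them except the replicate block, which gave 2 for TG against WT at 12 months and 3 for 12 against 2 months in TG mice and changed no other call. With the block and 1 array left out the counts lay between 0 and 6, between 0 and 5, and, for the difference of effects, between 0 and 1 (6, 5 and 1 without the replicate 2 TG mouse of 12 months). In its absence calls rose over all genes, to 731, 372 and 40 of 11189, against 5, 21 and 0 with all arrays and the block. They were 2 for TG against WT at 12 months without the replicate 1 TG mouse of 12 months or either TG mouse of 2 months, and 3 and 2 for 12 against 2 months in TG mice without that mouse and on leaving out a WT mouse of 12 months. In fits with no block, leaving out each array in turn gave medians of -0.84 to -0.38 (TG against WT, 12 months), -0.25 to -0.16 (2 months), -0.69 to -0.17 (difference of effects), -0.86 to -0.25 (age in TG) and -0.29 to 0.057 (age in WT).

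Directions turned only when 1 array was left out, and no such value passed the test. For TG against WT at 12 months the ranges were -1.16 to 0.59 for Cd79a, -0.84 to 0.11 for Cd79b and -0.35 to 0.18 for Ms4a1. At 2 months they were -0.43 to 0.19 for Cd79a, -0.26 to 0.028 for Cd79b and -0.43 to 0.058 for Fcrl1. For the difference of effects they were -1.04 to 0.72 for Cd79a, -0.72 to 0.23 for Cd79b, -0.29 to 0.012 for Cd72, -0.17 to 0.055 for Fcrla and -0.13 to 0.40 for Ms4a1. For age in TG mice they were -1.12 to 0.63 for Cd79a, -0.78 to 0.17 for Cd79b, -0.26 to 0.045 for Cd72 and -0.37 to 0.16 for Ms4a1. For age in WT mice they were -0.43 to 0.25 for Cd79a, -0.16 to 0.036 for Cd79b, -0.28 to 0.38 for Cd22, -0.074 to 0.14 for Cd72, -0.083 to 0.16 for Cr2, -0.74 to 0.078 for Fcer2a and -0.31 to 0.15 for Siglecg. When the replicate 1 TG mouse of 12 months was omitted, the values of Cd79a (0.59) and Cd79b (0.11) at 12 months were above 0. Where an array was left out, the lone mouse of its group is assumed to vary like the others.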
